A study of Homo sapiens with 24 samples.

Results

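Galunisertib, a small-molecule inhibitor of the kinase domain of the TGFβ receptor type 1 (also named LY2157299), was added to TGFβ-stimulated PLC/PRF/5 cells, and the change it made to gene expression is described here. The comparison set the 3 arrays labelled PLC/PRF/5, TGFb + Galunisertib against the 3 arrays labelled PLC/PRF/5, TGFb, which are 6 of the 24 arrays of the series. PLC/PRF/5 is an established human hepatocellular carcinoma (HCC) line, and SNU-449, also an HCC line, carried the same treatments on the other 12 arrays. All cells were starved of serum overnight and collected after 16 h. The TGFβ group received recombinant human TGF-β1 at 1 ng/mL, the combined group received the same dose together with galunisertib at 10 µM, and the remaining PLC/PRF/5 arrays held untreated control cells and cells given galunisertib without TGFβ, 3 arrays each. Each array of a group came from an independent culture experiment of this 1 line, so the errors below cover the spread between cultures and not that between tumours.

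TGFβ binds a type 2 receptor that recruits and phosphorylates the type 1 receptor, whose kinase phosphorylates SMAD2 and SMAD3. These enter the nucleus with SMAD4 and act at promoters and enhancers, and among the genes they switch on are inhibitors of the pathway itself, such as SKIL and SMAD7, which form a negative feedback loop. In hepatocytes TGFβ arrests growth and favours cell death, and in advanced liver cancer it favours migration and matrix deposition. A type 1 receptor kinase inhibitor stops the signal at its first intracellular step, and galunisertib also acts on the related activin and nodal receptors.

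All values are log2 signals of one-colour arrays relative to the 75th percentile of the same array, called levels below, so that a level of 0 is the signal of that percentile and a difference of 1 is 2-fold. A floor was set at 5.70% of the 75th percentile (a level of -4.13), because weaker signals had no reliable order. A gene was called when it changed more than 2-fold with limma's P below 0.001, and the adjusted p (Benjamini-Hochberg over all genes tested) is given beside each change. The 75th percentile of the raw signal lay between 219 and 261 on the TGFβ arrays and between 228 and 254 on the combined arrays, and the share of probes well above background was 47.3 to 49.6% and 45.6 to 47.5%, respectively. All 10 markers of a hepatocyte-derived line were well above background on all 6 arrays. Of 20 markers of leukocytes, endothelium, fibroblasts and stellate or neural cells, 11 were not above background on any of the 6 arrays, COL1A1, COL3A1 and PECAM1 among them, and 7 were above it on all 6. The summed linear signal of these 20 was 4.004 to 4.342 times the 75th percentile in the TGFβ group and 2.32 to 2.63 times in the combined group. PDGFRB, a growth factor receptor typical of pericytes and stellate cells, made up most of that sum and was called lower, from a level of 1.40 ± 0.03 to 0.33 ± 0.12 (SD, n = 3), and its part in other results was not tested. Both groups lay in row 2 of their slides, and on all 3 slides the TGFβ array had position 1 and the combined array position 2, so that position and treatment cannot be told apart.

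Galunisertib added to TGFβ moved 516 of 16684 genes tested past the threshold (3.09%), 222 higher (1.33%) and 294 lower (1.76%). With the adjusted p below 0.05 in place of the P threshold, 558 genes changed more than 2-fold, and without the fold limit 6520 genes had an adjusted p below 0.05 (39.1%), 4306 higher (25.8%) and 2214 lower (13.3%). Counts at this threshold within the gene lists below stand beside these shares. The median change over all genes was 0.06, and the levels of the 2 groups did not overlap for 9387 genes (56.3%). All 516 called genes were among these, so that a lack of overlap, where given below, adds nothing to a call. Of the 516, 438 were well above background on all 6 arrays. The sign of the change was the same on all 3 slides for 515 of the 516, and the remaining one, the noncoding RNA lnc-EDAR-5, lacked 1 array. The balance of rises and falls depended on the scaling between arrays. Rises were 43.0% of the calls as scaled here, 69.6% of 616 calls when arrays were scaled to their medians, which moved the median of all genes to 0.23, and 22.9% of 593 calls when the 75th percentile was taken over detected probes, which moved it to -0.11. Both shifts from the scaling used here were 0.17 in size, and changes smaller than that have no settled direction.

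**Figure D1:**
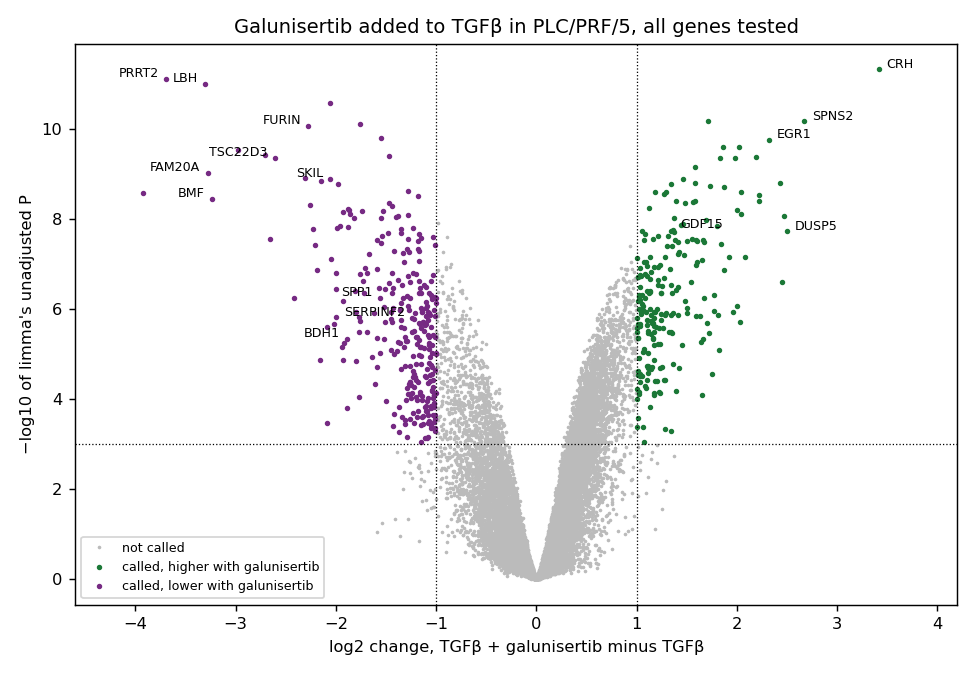
Each point is 1 of the 16684 genes tested, with the log2 change (TGFβ + galunisertib minus TGFβ) on the horizontal axis and -log10 of limma's unadjusted P on the vertical axis. Dotted lines mark a 2-fold change and P of 0.001, the 222 called rises are green and the 294 called falls purple, CRH is the rise farthest to the right and PRRT2 and LBH are among the falls farthest to the left, LBH with floor values in the combined group.

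SKIL, which encodes SnoN, a repressor that binds SMAD complexes and is itself switched on by TGFβ, was the clearest feedback gene. Its level was 1.13, 1.21 and 1.24 on the 3 TGFβ arrays and -0.83, -0.99 and -0.76 on the 3 combined arrays. The groups lay far apart and each was tight, and the change was -2.06 ± 0.11 (SE, n = 3 per group, limma, adjusted p = 8.91e-07), a 4.16-fold fall. Untreated cells had a mean level of -0.43 ± 0.14 (SD, n = 3). Arrays without TGFβ lay in row 1 of the slides, so that any difference between TGFβ and control cannot be told apart from the slide row, and every comparison with the TGFβ group shares those 3 arrays with the main one.

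SPP1 encodes osteopontin, a secreted glycoprotein that binds integrins and CD44. Its level was 0.38, -0.17 and 0.00 with TGFβ and -1.32, -1.69 and -1.47 with both agents, without overlap. It fell by 1.56 on the log2 scale (SE 0.15, limma, adjusted p = 3.41e-05), 2.95-fold, and the control level was -2.26 ± 0.14 (SD, n = 3), below both groups.

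BDH1 encodes the mitochondrial dehydrogenase that interconverts the ketone bodies acetoacetate and 3-hydroxybutyrate. Its level was 0.66, 0.07 and 0.41 with TGFβ and -1.35, -1.76 and -1.42 with both, a 3.70-fold fall (log2 change -1.89, SE 0.22, limma, adjusted p = 0.000123). SERPINF2 encodes α2-antiplasmin, the liver-made inhibitor of plasmin. Its level was -0.29, -0.85 and -0.61 with TGFβ and -1.72, -1.97 and -1.79 with both, a 2.36-fold fall (log2 change -1.24, SE 0.13, limma, adjusted p = 6.5e-05). For both genes the 2 groups did not overlap, and the control lay near the TGFβ group, at -0.05 ± 0.22 for BDH1 and -0.77 ± 0.06 for SERPINF2 (SD, n = 3). When the background was corrected by normexp, SERPINF2 fell by 0.76 and lost its call, and SERPINF2 and SPP1 missed P of 0.001 in a plain test of the 2 groups without moderated variances.

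**Figure D2:**
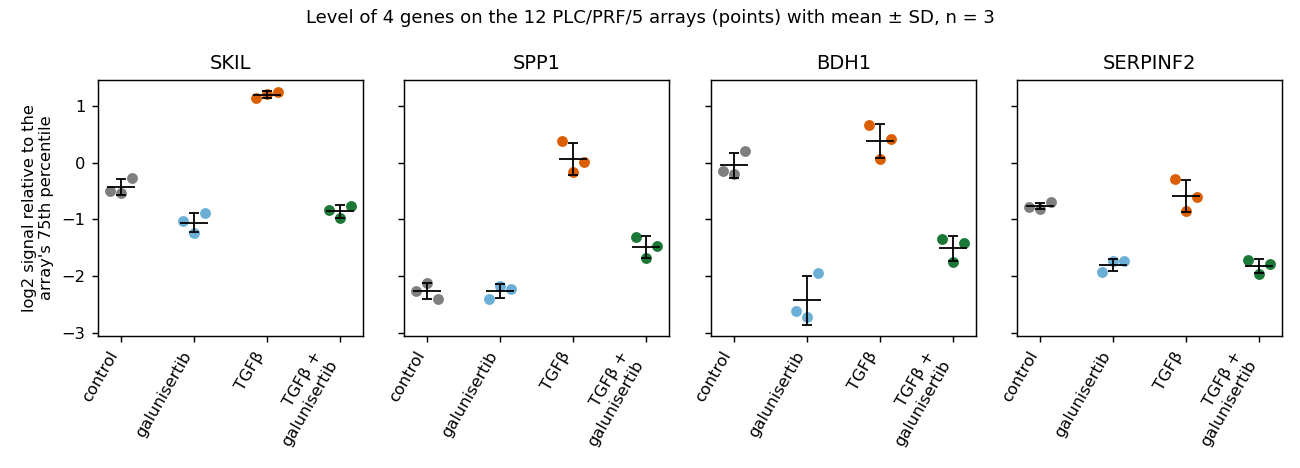
Points are the single PLC/PRF/5 arrays, 3 per group, and bars give the mean ± SD of the log2 level relative to the array's 75th percentile for SKIL, SPP1, BDH1 and SERPINF2. SKIL and SPP1 stand highest with TGFβ and drop with the combination, whereas BDH1 and SERPINF2 stand alike in control and TGFβ cells and are low in both groups that received galunisertib.

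The sequences just upstream of 3 of these genes and of EGR1, the leading immediate-early gene among the rises, are shown to let the binding motifs of SMADs and serum response factor be read beside the changes. They are the 250 bases before the annotated start in RefSeq (GRCh38.p14), written 5′ to 3′ on the strand of the gene, and capitals mark CAGAC or its reverse complement GTCTG, the short box bound by SMAD3 and SMAD4, the cyclic AMP response element TGACGTCA, and CArG boxes, the sites of serum response factor. SKIL lies on the plus strand (chr3:170357465-170357714), SPP1 on the plus strand (chr4:87975464-87975713), BDH1 on the minus strand (chr3:197573344-197573593) and EGR1 on the plus strand (chr5:138465229-138465478).
SKIL: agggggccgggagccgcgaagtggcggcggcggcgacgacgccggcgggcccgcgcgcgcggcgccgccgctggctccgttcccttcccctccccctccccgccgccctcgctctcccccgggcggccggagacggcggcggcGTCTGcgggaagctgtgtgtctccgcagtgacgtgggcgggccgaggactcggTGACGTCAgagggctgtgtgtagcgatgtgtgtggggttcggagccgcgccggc
SPP1: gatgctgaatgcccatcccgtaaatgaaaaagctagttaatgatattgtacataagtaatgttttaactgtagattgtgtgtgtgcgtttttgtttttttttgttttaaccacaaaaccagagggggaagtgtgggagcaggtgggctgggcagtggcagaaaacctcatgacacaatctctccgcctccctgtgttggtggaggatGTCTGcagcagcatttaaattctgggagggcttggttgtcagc
BDH1: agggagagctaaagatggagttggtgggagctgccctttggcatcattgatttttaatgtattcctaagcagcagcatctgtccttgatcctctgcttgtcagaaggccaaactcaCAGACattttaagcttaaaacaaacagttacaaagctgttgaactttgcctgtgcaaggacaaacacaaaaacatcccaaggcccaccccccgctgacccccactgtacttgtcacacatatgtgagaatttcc
EGR1: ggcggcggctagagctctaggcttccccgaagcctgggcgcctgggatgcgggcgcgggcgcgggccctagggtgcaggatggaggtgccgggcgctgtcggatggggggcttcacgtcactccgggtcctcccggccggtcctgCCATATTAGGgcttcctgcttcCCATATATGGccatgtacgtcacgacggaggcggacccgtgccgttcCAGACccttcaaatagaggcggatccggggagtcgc
The box starts 43 bases before the start of SPP1, 134 before BDH1 and 36 before EGR1, and stands farther upstream than the cyclic AMP response element in SKIL. SKIL holds the cyclic AMP response element at 54, and EGR1 holds CArG boxes at 105 and 83. CAGAC on either strand was found in 51.8% of 166 promoters of genes called higher, in 43.2% of 199 of genes called lower, in 36.4% of 11376 of genes tested and in 37.8% of all 27303 promoters. CArG boxes were found in 2.41%, 2.51%, 0.985% and 1.14% of the same sets, and the palindrome GTCTAGAC in none of the called sets and in 0.158% and 0.176% of the other sets. TGACGTCA stood in 4.82%, 1.51%, 2.78% and 1.77%, the AP-1 site TGACTCA in 3.61%, 4.52%, 2.74% and 4.16%, and the ETS site CCGGAAG in 9.64%, 3.52%, 15.1% and 8.82%. These shares describe letters within 250 bases and do not locate bound factors.

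Negative feedback genes of the pathway were lower with galunisertib. Of 12 such genes 10 were tested, and 3 were called lower (SKIL, PMEPA1 and SMAD7) and none higher. At an adjusted p below 0.05, 8 were lower and none higher, and the median change of the 10 was -0.50 against 0.06 over all genes. SMAD7, the inhibitory SMAD that directs receptor degradation, had levels of 1.73, 1.84 and 1.90 with TGFβ and 0.47, 0.30 and 0.07 with both agents, and fell by 1.54 on the log2 scale (SE 0.11, limma, adjusted p = 4.62e-06). PMEPA1, a membrane protein that sequesters receptor-activated SMADs, was dim, at -1.27, -1.14 and -1.43 against -3.42, -3.27 and -2.82, and fell by 1.89 (SE 0.33, adjusted p = 0.00135). Its call was lost without the first combined array, where the change was -1.76. The groups did not overlap for any of the 3, as for every called gene.

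Other known targets of TGFβ went both ways. Of 22 listed, 18 were tested, 1 was called lower and 2 higher, and at an adjusted p below 0.05, 10 were lower and 3 higher, with a median of -0.60. FSTL3, a secreted activin antagonist, fell from 1.85, 2.01 and 1.83 to 0.66, 0.53 and 0.62 (log2 change -1.29, SE 0.09, limma, adjusted p = 6.66e-06). Tropomyosin TPM1 (-0.93), the growth factor PDGFB (-0.77) and the AP-1 member JUNB (-0.60) had adjusted p values of 0.000185, 0.000495 and 0.00895 without reaching 2-fold. CCN2, connective tissue growth factor, rose with galunisertib, from 1.84, 2.20 and 1.74 to 3.61, 3.51 and 3.43 (log2 change 1.59, SE 0.17, adjusted p = 6.2e-05). Transglutaminase TGM2 also rose (1.05, adjusted p = 5.85e-05), and was below 2-fold without the first TGFβ array (0.98). The mean level of CCN2 was 2.74 ± 0.25 in control cells and 1.93 ± 0.24 with TGFβ (SD, n = 3).

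ID genes, which encode inhibitors of helix-loop-helix factors and are best known as targets of BMP signalling, rose with the inhibitor. Among 10 SMAD and ID genes, all tested, ID4 (1.86, adjusted p = 3.5e-07), ID1 (1.25, adjusted p = 5.83e-05) and ID3 (1.08, adjusted p = 4.25e-06) were called higher and none lower, and at an adjusted p below 0.05, 5 were higher and 2 lower. ID4 had levels of 1.85, 1.93 and 1.97 with TGFβ and 3.83, 3.81 and 3.69 with both agents, with no overlap. ID3 lost its call with the percentile over detected probes, under quantile normalization and under normexp (0.87 at the lowest). ID1 lost its call under quantile normalization (0.99). Of 21 ligands and receptors of the family, 17 were tested. The stress-induced ligand GDF15 was among the brightest genes on the array and rose from 8.23, 8.40 and 8.32 to 9.75, 9.60 and 9.69 (1.36, SE 0.09, limma, adjusted p = 3.72e-06), while the BMP type 2 receptor BMPR2 (-1.51, adjusted p = 2.65e-05) and the activin subunit INHBE (-1.21, adjusted p = 0.000456) fell. BMPR2 reached the floor on 1 combined array, and lost its call with the floor doubled and under normexp. INHBE lost its call under normexp and in a plain test of the 2 groups. The medians were 0.38 for SMAD and ID genes and -0.08 for ligands and receptors, and the latter turned positive, to 0.10, when arrays were scaled to their medians.

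Feedback genes of the ERK MAP kinase pathway and AP-1 family genes, which respond to growth factors within minutes to hours, were the list with the most rises. All 20 were tested, 9 were called higher (DUSP5, EGR1, DUSP6, SPRY4, ETV5, FOS, SPRY1, DUSP4 and JUN) and JUND was called lower. At an adjusted p below 0.05, 17 were higher and 1 lower, and the median was 0.94 against 0.06 over all genes, with a range of 0.77 to 1.12 over the alternative settings. DUSP5, a nuclear phosphatase that inactivates ERK, had levels of -1.96, -1.24 and -1.65 with TGFβ and 1.03, 0.72 and 0.91 with both, a 5.66-fold rise (log2 change 2.5008, SE 0.17, limma, adjusted p = 3.92e-06). EGR1, an immediate-early transcription factor, went from 1.36, 1.54 and 1.45 to 3.95, 3.65 and 3.73 (2.32, SE 0.10, adjusted p = 2.85e-07). DUSP6, the cytoplasmic ERK phosphatase, went from 3.14, 3.17 and 3.33 to 5.17, 5.32 and 5.22 (2.02, SE 0.09, adjusted p = 3.5e-07). For each of these 3 genes all combined arrays stood above all TGFβ arrays. SPRY4 (1.92) and SPRY1 (1.34) encode Sprouty inhibitors of receptor tyrosine kinase signalling, ETV5 (1.41) is an ETS factor, FOS (1.35) and JUN (1.01) form AP-1, and DUSP4 (1.27) is a nuclear phosphatase. DUSP1 (0.04) and FOSB (0.09), also immediate-early genes, did not pass. JUND, the AP-1 member that tends to restrain growth, went from 0.10, -0.12 and -0.09 to -1.17, -1.06 and -1.05 (-1.05, adjusted p = 0.000305). JUN was not called without any 1 of 4 arrays (0.91 to 0.99), nor JUND without the first TGFβ array (-0.99). A second, dimmer probe of SPRY4 changed by 0.04, and SPRY4 lost its call when its probes were averaged (0.98). FOS, JUN and JUND lost the call under normexp background correction, and ETV5 and JUN in a plain test of the 2 groups. DUSP4 lost it when all 24 arrays shared 1 estimate of the spread.

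**Figure D3:**
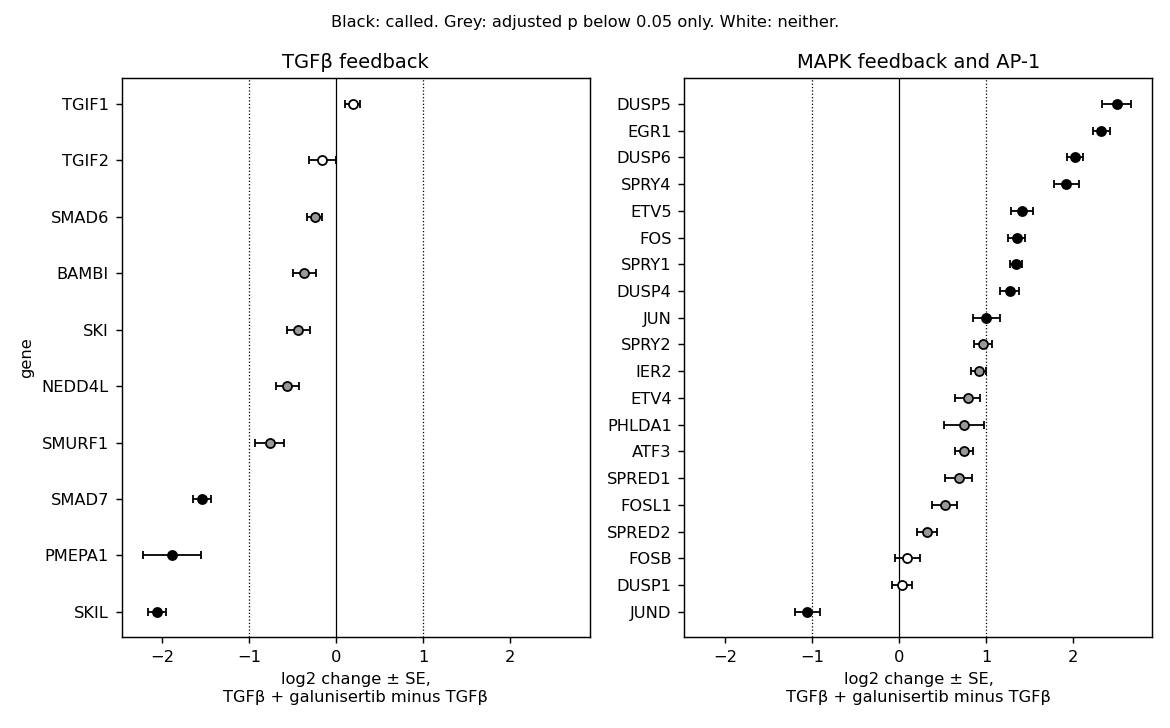
Points are log2 changes (TGFβ + galunisertib minus TGFβ) with limma's SE for the 10 tested TGFβ feedback genes on the left and the 20 MAPK feedback and AP-1 genes on the right, and dotted lines mark a 2-fold change. Black points were called, grey points had an adjusted p below 0.05 only and white points neither, and SKIL, PMEPA1 and SMAD7 stand lowest on the left and DUSP5, EGR1 and DUSP6 highest on the right.

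The largest rise among genes measured on all 6 arrays was that of CRH, corticotropin-releasing hormone, a peptide best known from the hypothalamus. Its level was 3.25, 3.40 and 3.38 with TGFβ and 7.004, 6.65 and 6.63 with both agents, a 10.68-fold rise (log2 change 3.42, SE 0.10, limma, adjusted p = 5.52e-08). The control level was 6.09 ± 0.05 (SD, n = 3), so that CRH was low in the TGFβ group alone among the 4 PLC/PRF/5 groups. SPNS2, the exporter of sphingosine-1-phosphate, went from -0.19, 0.19 and 0.05 to 2.66, 2.75 and 2.67 (log2 change 2.67, adjusted p = 1.76e-07). ACOX2, a peroxisomal oxidase that shortens bile acid precursors, went from 1.24, 0.80 and 1.05 to 3.64, 3.33 and 3.52 (2.47, adjusted p = 2.39e-06). SPTSSB, a small subunit of serine palmitoyltransferase, which starts sphingolipid synthesis, went from -2.28, -1.92 and -2.18 to 0.02, 0.16 and 0.01 (2.19, adjusted p = 3.91e-07). In each case the lowest combined array exceeded the highest TGFβ array by more than 1 on the log2 scale, and lack of overlap was a condition of the choice. The other large rises were of ANXA1 (2.45), an anti-inflammatory annexin, CEMIP (2.43), which takes part in hyaluronan breakdown, the secretory peptide precursor VGF (2.22), the bile acid transporter subunit SLC51B (2.22), FGFBP3 (2.08), which binds fibroblast growth factors, and thrombomodulin THBD (2.04). ANXA1 and VGF missed P of 0.001 when all 24 arrays shared 1 estimate of the spread.

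Among the falls, the largest among genes measured on all 6 arrays was that of a noncoding RNA known by an LNCipedia name, which went from 0.36, 0.54 and 0.49 to -3.42, -3.51 and -3.46, a 15.2-fold fall (log2 change -3.92, SE 0.22, limma, adjusted p = 1.21e-06). PRRT2, a presynaptic membrane protein, went from 1.81, 1.38 and 1.55 to -2.16, -2.06 and -2.11 (-3.69, SE 0.12, adjusted p = 5.52e-08). BMF, a BH3-only protein of the BCL2 family that promotes cell death and is a known target of TGFβ in liver cells, went from 2.42, 2.23 and 2.35 to -0.79, -1.03 and -0.89 (-3.24, SE 0.18, adjusted p = 1.47e-06). FAM20A, a pseudokinase of the secretory pathway, went from 0.88, 0.25 and 0.35 to -2.67, -2.91 and -2.78 (-3.28, SE 0.16, adjusted p = 7.52e-07). FURIN, the protease that cleaves the TGFβ precursor to its mature form, went from 1.84, 1.87 and 1.94 to -0.24, -0.39 and -0.54 (-2.27, SE 0.09, adjusted p = 1.76e-07). The groups did not overlap for any of these genes, which was a condition of their choice. MACROH2A2 (-2.71), a variant histone, TSC22D3 (-2.61), the glucocorticoid-induced leucine zipper protein, NEURL3 (-2.31), a ubiquitin ligase, ALPK2 (-2.26), an alpha kinase, C3P1 (-2.23), a complement pseudogene, the cytokine subunit IL27 (-2.16) and the apelin receptor ligand APELA (-2.15) completed the largest falls. IL27 had the widest spread of these, from -3.60 to -2.57 on the combined arrays, and lost its call under normexp.

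**Figure D4:**
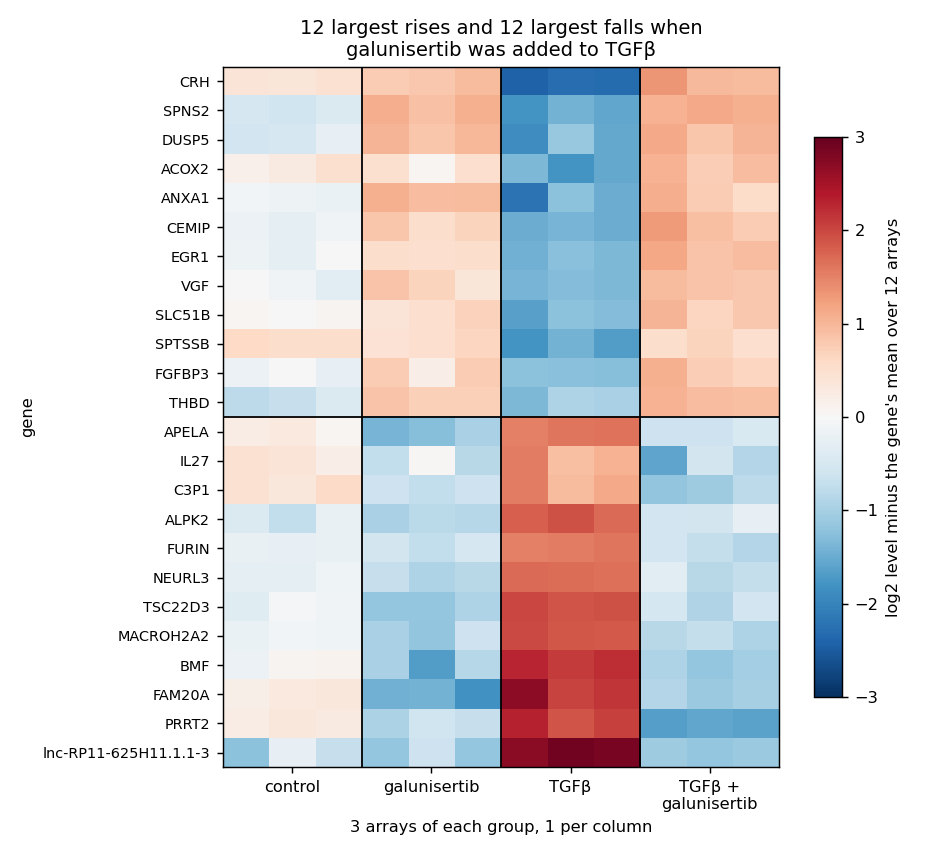
Colours give each gene's log2 level minus its mean over the 12 PLC/PRF/5 arrays, 1 column per array, for the 12 largest rises (top) and the 12 largest falls (bottom) among called genes measured on all 6 compared arrays. The TGFβ columns are the lowest for the rises and the highest for the falls, and the genes were picked for the contrast between the last 2 blocks of columns.

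Some genes were measured in 1 group only, and their change has a lower bound instead of a value. LBH, a transcriptional cofactor of limb and heart development, had levels of -1.04, -0.54 and -0.91 with TGFβ and was not well above background on any combined array, and was at least 9.83-fold lower with galunisertib. PIK3IP1, an inhibitor of PI3 kinase, was likewise at least 5.33-fold lower, the natriuretic peptide receptor NPR2 at least 4.57-fold lower and C11orf86 at least 3.94-fold lower. In the other direction AGR2, a disulfide isomerase of secretory epithelia, was at the floor on all TGFβ arrays and at -1.98, -2.26 and -2.06 on the combined arrays, and was at least 4.09-fold higher. NOSTRIN (at least 3.37-fold), TLDC2 (3.27-fold), ANGPTL8 (3.14-fold) and CRYBG1 (2.26-fold) followed. Each bound sets the mean of the brighter group against, on each array of the dimmer group, the highest of the weakest signal above background, the floor and the probe's own signal. Under normexp background correction LBH (-1.69) was still called and the other 8 genes given here were not.

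Liver genes changed in both directions. Of 30 hepatocyte genes 25 were tested, 2 were called higher and 3 lower, and at an adjusted p below 0.05, 9 were higher and 4 lower. Over all genes 25.8% were higher and 13.3% lower at that threshold. The median of the 25 was 0.22 against 0.06 over all genes, and it ranged from 0.05 to 0.39 over the alternative settings. Fetuin A, encoded by AHSG, rose from 2.06, 1.91 and 2.07 to 4.01, 2.99 and 3.22 (log2 change 1.39, SE 0.22, limma, adjusted p = 0.000746), and the apolipoprotein APOA2 rose by 1.03 (adjusted p = 7.73e-05). Vitronectin VTN fell from 5.34, 5.18 and 5.27 to 4.14, 4.04 and 4.09 (-1.17, adjusted p = 1.08e-05), the glucose-6-phosphatase gene G6PC1 fell by 1.10 (adjusted p = 3.97e-05) and the apolipoprotein APOC3 fell by 1.05 (adjusted p = 0.00246). Albumin, encoded by ALB, was at -0.45 ± 0.21 with TGFβ and 0.04 ± 0.26 with both (SD, n = 3, limma, adjusted p = 0.025). APOA2 was not called without the second TGFβ array or the third combined array (0.98 and 0.93), nor APOC3 without any 1 of 4 arrays (-1.09 to -0.89). Among 16 tested transcription factors of the liver, HLF, a clock-controlled bZIP factor, was called higher (from 1.62, 1.57 and 1.69 to 3.20, 2.98 and 3.04, a change of 1.45, adjusted p = 3.21e-06) and none lower. At an adjusted p below 0.05, 5 factors were higher and 6 lower, with ONECUT1 (-0.94), CEBPA (-0.82) and HNF4A (-0.67), factors that maintain hepatocyte identity, among the lower ones. HNF4A was dim, and its adjusted p was 0.056 or 0.054 without the third TGFβ array or the second combined array.

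The gene lists around BDH1, SERPINF2 and SPP1 showed how far each gene stood apart from its neighbours in function. Of 9 tested ketone body genes, BDH1 and CPT1A, which admits fatty acids to mitochondria, were called lower and none higher, and 5 had an adjusted p below 0.05, all lower, with a median of -0.38. CPT1A went from 3.26, 2.95 and 2.85 to 2.07, 1.84 and 1.86 (-1.10, adjusted p = 4.87e-05), and to -0.98 without the first TGFβ array, which ended its call. In the plasmin system 12 genes were tested. The urokinase receptor PLAUR (1.72, adjusted p = 0.000102) and tissue plasminogen activator PLAT (1.11, adjusted p = 7.79e-05), which promote plasmin formation, rose, and the serine protease inhibitors SERPINE2 (-1.35, adjusted p = 3.6e-06), SERPINF2 and SERPIND1 (-1.14, adjusted p = 0.000892) fell. SERPINE2 went from 3.25, 3.40 and 3.37 to 1.98, 2.01 and 1.98, the tightest change of the list. PLAUR was dim, at -3.66, -3.20 and -3.85 with TGFβ and -1.68, -1.91 and -1.96 with both. PLAT was dim as well, with a mean of -3.92 in the TGFβ group, and lost its call with the floor doubled (0.32), under normexp (0.32), with the percentile over detected probes (0.94) and without the first combined array (0.998). PLAUR lost its call under normexp (0.61) and SERPIND1 without the second combined array (-0.97). Of the 12, 4 were higher and 5 lower by adjusted p, with a median of -0.11. Of 7 tested genes for osteopontin and its receptors SPP1 was the 1 called, 2 were lower by adjusted p and the median was -0.14.

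Metabolic and stress genes moved by smaller steps. Of 16 ER stress and ATF4 genes, 12 were higher and none lower at an adjusted p below 0.05, the median was 0.51, and TRIB3 (1.21, adjusted p = 2.34e-05), a pseudokinase induced by ATF4, and SLC7A11 (1.04, adjusted p = 1.77e-05), the cystine transporter, were called. Cholesterol synthesis genes had 11 of 19 higher and none lower at that threshold, a median of 0.33 and 1 call, INSIG1 (1.01, adjusted p = 0.00012), the sterol sensor partner of SCAP. Cell cycle genes had 10 of 19 higher, none lower, a median of 0.29 and no call. These counts stand beside 25.8% of all genes higher and 13.3% lower at the same threshold, and a scaling that moves all genes by 0.17 moves these medians equally. In the hypoxia and glycolysis list hexokinase HK2 (1.41, adjusted p = 5.19e-06) and the glucose transporter SLC2A1 (1.03, adjusted p = 8e-05) rose, and PFKFB3 (-1.99, adjusted p = 3.55e-06), which makes the activator of phosphofructokinase, and NDRG1 (-1.06, adjusted p = 0.000432) fell. Of the 13 tested, 6 were higher and 3 lower by adjusted p, with a median of 0.25. PFKFB3 went from 2.55, 2.58 and 2.53 to 0.87, 0.48 and 0.34. The calls of SLC7A11 (0.98) and NDRG1 (-0.98) were lost without the first TGFβ array, that of SLC2A1 (0.95) without the first combined array, and that of INSIG1 without either of these (0.96 and 0.90).

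Cytoskeletal, junction and inflammatory lists held few calls. Of 15 tested actin cytoskeleton genes TAGLN2 (-1.44, adjusted p = 1.62e-05) and the myosin light chain MYL9 (-1.10, adjusted p = 2.55e-05) were called lower, and 7 were lower and 2 higher at an adjusted p below 0.05. TAGLN2, an actin-binding transgelin, went from 2.91, 3.21 and 2.89 to 1.60, 1.59 and 1.51. Of 17 epithelial genes the tight junction gene CLDN1 was called higher (1.13, adjusted p = 2.95e-05). None of the 11 tested mesenchymal genes was called, 3 were higher and 5 lower by adjusted p, and SNAI1, a repressor of E-cadherin, stood at -1.25 ± 0.07 with TGFβ and -0.29 ± 0.08 with both (SD, n = 3, limma, adjusted p = 2.01e-05). Collagens COL1A1, COL1A2 and COL3A1 were not above background. Of 16 NF-κB targets the chemokine CXCL2 was called higher (1.07, adjusted p = 0.00019) and the feedback inhibitor TNFAIP3 lower (-1.05, adjusted p = 3.17e-05). Without the first TGFβ array CXCL2 was below 2-fold (0.95), without the third TNFAIP3 was (-0.998), and a second probe of CXCL2 had the opposite sign. None of 9 interferon genes was called, with 5 higher and 2 lower by adjusted p and a median of 0.38. Of 13 genes of xenobiotic and bile acid handling only SULT2A1 was called, 3 were higher and 2 lower by adjusted p, and the median was -0.08. The medians were -0.19 for actin cytoskeleton, 0.12 for epithelial, -0.16 for mesenchymal and 0.12 for NF-κB genes, and the last 3 changed sign with the scaling.

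Whether galunisertib acted alike without added TGFβ was read from the 3 arrays of galunisertib without TGFβ and the 3 control arrays. There, galunisertib against control gave 57 calls (0.342%), 26 higher (0.156%) and 31 lower (0.186%). Of the 57, 45 (78.9%) were also called in the presence of TGFβ, all 45 in the same direction, and they made up 8.72% of the 516. The sign was the same for 465 of the 516 (90.1%), against 68.1% of all 16684 genes, and the median size of the change over the 516, which were picked for their size with TGFβ, was 1.24 with TGFβ and 0.41 without it. Among MAPK feedback and AP-1 genes, 13 were higher and 1 lower at an adjusted p below 0.05 with galunisertib alone, where 3.67% of all genes were higher and 1.75% lower, and the median was 0.58. DUSP5 rose by 1.39 (adjusted p = 0.00235) and SPRY4 by 1.13 (adjusted p = 0.00316) there.

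The difference between the galunisertib effects with and without TGFβ, tested as an interaction in the same limma fit, was called for 199 genes (1.19%), 78 higher (0.468%) and 121 lower (0.725%). The share of positive differences was 39.2% as scaled here and 24.8% with the percentile over detected probes. SKIL had an effect of -2.06 with TGFβ and -0.63 without (difference -1.43, SE 0.15, adjusted p = 0.00063). SPP1 had -1.56 and -0.01 (difference -1.55, SE 0.21, adjusted p = 0.00222). Both genes stood higher in the TGFβ group than in control, SKIL by 1.63 and SPP1 by 2.33, where TGFβ and slide row cannot be told apart. BDH1, in contrast, had -1.89 with TGFβ and -2.38 without, and the difference of 0.49 (95% interval -0.20 to 1.19, adjusted p = 0.348) did not pass. SERPINF2 had -1.24 and -1.04, a difference of -0.20 (95% interval -0.61 to 0.20, adjusted p = 0.525). Neither differed between the TGFβ group and control beyond the threshold (0.43, adjusted p = 0.244, and 0.18, adjusted p = 0.413). For both genes the interval does not reach the differences of SKIL and SPP1.

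CRH, ACOX2 and SPTSSB had the largest positive differences among the called genes. CRH changed by 3.42 with TGFβ and 0.44 without (difference 2.98, SE 0.15, limma, adjusted p = 4.84e-06), SPTSSB by 2.19 and -0.02 (2.21, adjusted p = 3.16e-05) and ACOX2 by 2.47 and 0.04 (2.43, adjusted p = 0.000261). All 3 stood lower in the TGFβ group than in control (-2.74, -2.18 and -1.85), where TGFβ and slide row cannot be told apart. For SPTSSB the level with both agents, 0.06 ± 0.09, was within the spread of the control, 0.05 ± 0.04 (SD, n = 3). Among falls, PRRT2 (-3.69 with TGFβ, -1.02 without), SYT12, a synaptotagmin (-1.94 and 0.87), and the LNCipedia noncoding RNA that fell most (-3.92 and -0.25) had differences of -2.68, -2.81 and -3.67 (adjusted p = 2.7e-05, 0.00129 and 0.000189). LBH was at the floor in control cells and in both galunisertib groups, so its difference of -3.30 rests on floor values.

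Of the 516 called genes, 203 also changed in the same direction with galunisertib alone at an adjusted p below 0.05. THBD, APELA, FAM20A and SULT2A1 were among the 45 genes called in both comparisons. THBD rose by 2.04 with TGFβ and 1.39 without (difference 0.65, 95% interval 0.26 to 1.04, adjusted p = 0.0479, under 2-fold). APELA fell by 2.15 and 1.41, FAM20A by 3.28 and 1.82, with a called difference of -1.45 (adjusted p = 0.00561). SULT2A1, the sulfotransferase of steroids and bile acids, was the reverse case, as it fell more without TGFβ. It stood at -1.33, -2.15 and -1.53 with TGFβ and -2.95, -2.88 and -2.91 with both (-1.24, adjusted p = 0.000804), and fell by 2.67 without TGFβ (difference 1.43, SE 0.28, limma, adjusted p = 0.0145). The combined group of SULT2A1 lay close to the lower end of measurement, the galunisertib-only group lower still at -3.82 ± 0.27 (SD, n = 3).

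**Figure D5:**
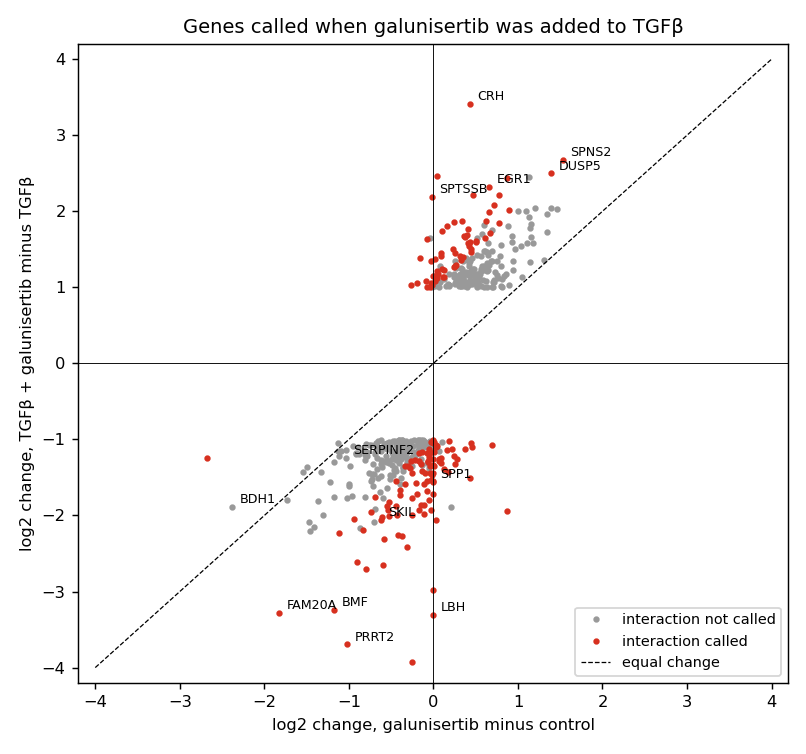
Each point is 1 of the 516 called genes, with the log2 effect of galunisertib without TGFβ on the horizontal axis and with TGFβ on the vertical axis, and red points had a called interaction. Every point lies beyond 1 or -1 on the vertical axis because the genes were chosen there, CRH, SPTSSB, SPP1 and LBH stand near 0 on the horizontal axis, and BDH1 and SERPINF2 lie near the dashed line of equal change.

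SNU-449 cells given the same 2 treatments provided the comparison between lines, fitted over all 24 arrays. The difference between the lines was called for 1100 of 17902 genes (6.14%), 652 higher in SNU-449 (3.64%) and 448 lower (2.5%), and the effect within SNU-449 for 779 (4.35%), 370 higher (2.07%) and 409 lower (2.28%). The split between the lines depended on the processing, with 59.3% of the differences positive as scaled here, 22.9% under scaling to the array median, 76.4% with the percentile over detected probes and 36.4% under normexp. Of 16453 genes measured by the same probe in both fits, 507 were called in PLC/PRF/5 and 531 in SNU-449, 84 in both (16.6% and 15.8%), and 66 of the 84 went the same way. The sign in SNU-449 was that in PLC/PRF/5 for 54.2% of the 507 and for 49.3% of all. Genes at the floor in both SNU-449 groups were kept in these shares. Their change there was 0 apart from rounding, so that they had no real sign, and the median change of all genes in SNU-449 was 0. The shares therefore do not measure agreement among genes detected in both lines. SKIL fell in SNU-449 by 1.48 and BDH1 by 1.79, and neither differed between the lines beyond error (0.58, adjusted p = 0.21, and 0.10, adjusted p = 0.84). FURIN fell by 2.25 there, against 2.27 in PLC/PRF/5. SPP1 did not fall in SNU-449, with a change of 0.51 (adjusted p = 0.0141), and the lines differed by 2.07 (SE 0.20, limma, adjusted p = 5.52e-07). SERPINF2 stayed below the background limit in SNU-449 on all 6 arrays compared, so the difference of 1.24 rests on floor values in that line, as does that of CRH (-3.42). CCN2 fell by 2.23 in SNU-449, opposite to its rise in PLC/PRF/5 (difference -3.82, SE 0.21, adjusted p = 3.32e-10), and ID3 fell by 1.91 (difference -2.996, SE 0.21, adjusted p = 8.41e-09). EGR1 changed by -0.55 (adjusted p = 0.0561) and differed by -2.87 (SE 0.28, adjusted p = 5.29e-07). HLF rose in both lines, by 1.45 in PLC/PRF/5 and 3.42 in SNU-449 (difference 1.97, SE 0.21, adjusted p = 1.68e-06).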

How the data were processed

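The 24 arrays were one-colour Agilent SurePrint G3 arrays (62976 spots, 3 slides) hybridised with Cy3-labelled total RNA, and the authors extracted spot intensities with Agilent Feature Extraction 10.7.3.1. The deposited scanner files give the processed signal as a linear intensity, background-subtracted by that software. Control spots and 111 to 216 outlier spots per array were dropped, no spot was saturated, spots of a probe were averaged, and signals were divided by the array's 75th percentile, raised to a floor of 5.70% of it and taken to log2. For that floor, the weakest signal well above background was found on each array and the median of these 24 values was taken. Probes well above background on all arrays of at least 1 group were tested, and the brightest probe stood for its gene. Of 58201 probes 31104 were named by RefSeq accession (assembly GRCh38.p14), 10719 by LNCipedia name and 16378 had no name. The deposited series table holds log2 values of the authors for 30913 probes, each centred on its median. Its scale was read from the values (slope 1.00 and r 0.9996 over 19267 probes), and it served as an alternative.

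limma 3.58.1 in R 4.3.3 was fitted over the 12 PLC/PRF/5 arrays (24 for the difference between lines), without a block, and 7 comparisons were tested. A call needed a fold above 2 and P below 0.001. Array number limits the precision. Normexp (offset 50) used the median signal, since the files hold no mean signal. Named genes were SPP1, BDH1, SERPINF2 and SKIL, the 12 largest rises and falls among called genes well above background on all 6 arrays and not overlapping between groups, list members that were called or had an adjusted p below 0.05, the 5 largest bounds each way (genes well above background on every array of 1 group and none of the other), and the 5 largest each way for the interaction and the line difference among genes called there and named or called in the main comparison. Some genes that this rule takes in are not reported here. Other genes are said to be chosen after their values were seen. The members and lists were chosen with earlier results of these data known. Replicate numbers are also slide numbers, so that the arrays were paired by slide. Correlations of deviations were 0.17 to 0.30 between TGFβ and control arrays and 0.02 to 0.28 between galunisertib and control arrays.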

Additional observations from a re-analysis of the deposited data

Results flagged for a closer look

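Effects of galunisertib that differed between conditions by a test of the difference itself are collected here, and no cause was tested. The effect with TGFβ minus that without was called for 199 genes in PLC/PRF/5 (limma interaction). Among the genes named, the positive differences on the log2 scale were CRH 2.98, ACOX2 2.43, SPTSSB 2.21, SLC51B 1.75 (adjusted p = 0.000588) and the somatostatin receptor SSTR2 1.71 (adjusted p = 0.00296). The negative ones were the LNCipedia noncoding RNA that fell most -3.67, LBH -3.30, SYT12 -2.81, PRRT2 -2.68, SPP1 -1.55 and SKIL -1.43. LBH rests on floor values in 3 of the 4 groups.

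The effect in SNU-449 minus that in PLC/PRF/5, both with TGFβ, was called for 1100 of 17902 genes (6.14%). The positive differences were PRRT2 4.36, the ubiquitin ligase gene TRIM67 4.30, lnc-PRPF18-2 3.87, lnc-CTSL1-1 3.42, the phosphate transporter SLC17A1 3.39, SPP1 2.07 and SERPINF2 1.24. The negative ones were CCN2 -3.82, CRH -3.42, ID3 -2.996, CLEC18B -2.93 and EGR1 -2.87, and adjusted p values of all 12 lay between 2.64e-13 and 0.000184. TRIM67, lnc-PRPF18-2, lnc-CTSL1-1 and SLC17A1 fell in PLC/PRF/5 (-1.73, -1.08, -1.45 and -1.996) and rose in SNU-449 (2.57, 2.79, 1.97 and 1.39). lnc-PRPF18-2 lost its call in PLC/PRF/5 without the first combined array (-0.95). SLC17A1 was not above background on the SNU-449 TGFβ arrays, TRIM67 was above it on 1 of these 3, and CRH and SERPINF2 were above it on no SNU-449 array compared. CLEC18B fell in both lines, by 1.13 in PLC/PRF/5 (0.99 without the first TGFβ array, not called) and by 4.06 in SNU-449.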

How the results depend on the processing

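Of 89 called genes that the text names, none changed direction in 23 alternative settings, 37 stayed called in all of them, and 52 lost the call in at least 1. The count of 516 calls ranged from 437 to 560 when 1 array was left out, and the counts for galunisertib alone, TGFβ alone, the interaction and the line difference ranged from 57 to 84, 167 to 195, 170 to 225 and 938 to 1147. The 2 groups compared were paired by slide, and the deviations of paired arrays correlated at 0.07, 0.33 and 0.03. The main fit did not use this pairing, and with the replicate block 514 genes were called, 508 of them shared. The block moved no count by over 1.5 times, with 195 calls for TGFβ alone. Normexp background correction gave 228 calls (133 higher, 95 lower), 15 for galunisertib alone, 104 for TGFβ alone, 89 for the interaction and 687 for the line difference. A plain two-group test, without the random variance model of the methods, gave 324 calls, 34 for galunisertib alone and 105 for TGFβ alone (538, 27 and 165 with a fold above 2 and a Benjamini-Hochberg p below 0.05). Without scaling between arrays TGFβ alone gave 331 calls and the interaction 100. The line difference gave 598 calls under the stricter filter, in which a probe had to pass on each array. List medians near 0 changed sign: plasmin system 0.065, xenobiotic genes 0.096, TGFβ ligands and receptors 0.097, mesenchymal genes 0.017 and osteopontin and receptors 0.033 under scaling to the array median, epithelial genes -0.052 and NF-κB targets -0.047 with the percentile over detected probes, epithelial genes -0.087, NF-κB targets -0.062, hypoxia genes -0.016 and ligands and receptors 0.036 under quantile normalization, interferon genes -0.025 with the stricter filter and epithelial genes -0.019 without the first TGFβ array (range over left-out arrays -0.019 to 0.16). The cause of these changes was not tested. Different probes of a gene had opposite signs in ATF3, CXCL2 and FLNA, which are among 35 named genes with several probes. The fit to the compared groups alone has no separate form for the interaction, whose groups are the 12 arrays already fitted.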

Other observations

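Genes of other functions, outside the lists, also rose when galunisertib was added to TGFβ, and those below were chosen after their values were seen. Ligands of the EGF receptor, which activate the ERK pathway, were among them. AREG, amphiregulin, had levels of 2.95, 3.22 and 3.0999 with TGFβ and 5.29, 4.73 and 4.56 with both agents (log2 change 1.77, SE 0.16, limma, adjusted p = 3.1e-05). EREG, epiregulin, went from 0.87, 1.12 and 0.92 to 2.36, 2.15 and 2.18 (1.26, adjusted p = 8.66e-05), and HBEGF, a dim gene, from -2.98, -3.18 and -3.39 to -1.66, -1.74 and -2.11 (1.35, adjusted p = 0.000104). TGFA stood apart from these, with a change of 0.09 (adjusted p = 0.806), and EGF, BTC and EPGN were not tested. Without TGFβ the changes were 0.41 for AREG, 0.25 for EREG and 0.95 for HBEGF (adjusted p = 0.168, 0.321 and 0.00794).

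MYC, a growth-promoting transcription factor that TGFβ represses in epithelial cells, was at 1.48, 1.75 and 1.62 with TGFβ and 3.82, 3.07 and 2.94 with both agents, a rise of 1.66 (SE 0.19, limma, adjusted p = 0.000123). Its control level was 2.40 ± 0.11 (SD, n = 3), between the 2 groups. RRS1, a ribosome assembly factor, had levels of 3.22, 3.43 and 3.34 with TGFβ and 5.15, 4.75 and 4.91 with both (1.61, SE 0.11, limma, adjusted p = 4.94e-06).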
